A study of Mus musculus with 12 samples.

Results

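The autosomal imprinted growth genes are 10 genes of the 50600 gene identifiers in the count tables: Grb10, Igf2, H19, Dlk1, Meg3, Peg3, Plagl1, Cdkn1c, Mest and Ndn. They were found by mapping Ensembl identifiers to symbols, all 10 were found, and all 10 passed the filter on low counts. They were chosen by name after earlier results on these libraries had listed Grb10 for its difference between genotypes in mTEC hi, so values from that contrast chose the members and are given here as a description, with no test. Polyadenylated RNA was sequenced from medullary thymic epithelial cells (mTECs), epithelial cells that show tissue proteins to maturing thymocytes. The sort split them by surface MHC class II: the high fraction is called mTEC hi, the low fraction mTEC lo, and each gave 6 libraries. All cells came from thymi of mice 6 to 8 weeks old of the strain B6.B6CB-Psmb11tm1Smta, either Psmb11-/- (Psmb11-deficient, lacking the thymus-specific proteasome subunit beta5t) or Psmb11+/+ (WT). In 8 libraries the title, source name and strain name 1 genotype, which leaves 2 Psmb11-deficient libraries (replicates 1 and 2) and 2 WT libraries (replicates 2 and 3) per cell type. In the other 4 libraries, titled WT 1 and knockout 3 in each cell type, the source name and strain name the opposite genotype from the title. These 4 were kept when mTEC hi was set against mTEC lo and left out of the main genotype contrasts. The labels do not say whether libraries came from separate animals or pools, so each p-value reflects library-to-library spread, part or all of which may be technical.

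Imprinted genes are transcribed mainly or only from the copy inherited from 1 parent, and many of them set the growth of the fetus and placenta. Igf2, Dlk1, Peg3, Plagl1, Mest and Ndn are active on the paternal copy, H19, Meg3 and Cdkn1c on the maternal copy, and Grb10 on the maternal copy in most tissues and on the paternal copy in neurons. Igf2 encodes a fetal growth factor, and H19, next to it, is a long noncoding RNA whose activity on the maternal copy excludes that of Igf2 through a shared control region. Dlk1 encodes a transmembrane Notch-family ligand that restrains differentiation, and Meg3 is the noncoding RNA of the same domain. Cdkn1c encodes the cell cycle inhibitor p57, Grb10 an adaptor that dampens insulin and IGF receptor signalling, Plagl1 (also Zac1) and Peg3 zinc finger proteins, Mest a hydrolase-like membrane protein and Ndn the MAGE family protein necdin. The libraries were not read allele by allele, so nothing here bears on which parental copy was active.

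The promoters of 5 members are shown because these genes open the contrasts described below: Dlk1, with the largest change between the cell types, Meg3 of the same domain, Plagl1 and Peg3, which changed in opposite directions, and Grb10, which was lower in the libraries titled knockout in both cell types. Each is the 250 bases before the start of transcription in RefSeq on GRCm38.p6, printed 5′ to 3′ on the strand of the gene, with CpG dinucleotides in capitals. The Dlk1 promoter is at chr12:109452573-109452822 (plus strand), the first of the Meg3 promoters at chr12:109540746-109540995 (plus), that of Plagl1 at chr10:13090582-13090831 (plus), that of Peg3 at chr7:6730420-6730669 (minus) and the first of the Grb10 promoters at chr11:12037421-12037670 (minus).
Dlk1: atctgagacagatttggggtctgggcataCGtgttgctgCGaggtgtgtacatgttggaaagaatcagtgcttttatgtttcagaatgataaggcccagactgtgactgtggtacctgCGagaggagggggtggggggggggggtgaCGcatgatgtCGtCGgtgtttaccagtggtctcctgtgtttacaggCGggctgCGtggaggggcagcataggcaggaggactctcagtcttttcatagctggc
Meg3: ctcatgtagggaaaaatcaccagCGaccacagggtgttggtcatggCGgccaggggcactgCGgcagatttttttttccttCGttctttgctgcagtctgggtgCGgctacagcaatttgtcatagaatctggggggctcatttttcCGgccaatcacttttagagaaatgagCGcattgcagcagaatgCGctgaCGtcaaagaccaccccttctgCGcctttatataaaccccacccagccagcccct
Plagl1: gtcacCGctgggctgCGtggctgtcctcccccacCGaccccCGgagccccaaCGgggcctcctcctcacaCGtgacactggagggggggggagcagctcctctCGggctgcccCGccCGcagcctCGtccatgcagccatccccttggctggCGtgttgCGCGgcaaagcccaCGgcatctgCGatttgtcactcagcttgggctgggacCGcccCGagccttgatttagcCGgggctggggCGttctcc
Peg3: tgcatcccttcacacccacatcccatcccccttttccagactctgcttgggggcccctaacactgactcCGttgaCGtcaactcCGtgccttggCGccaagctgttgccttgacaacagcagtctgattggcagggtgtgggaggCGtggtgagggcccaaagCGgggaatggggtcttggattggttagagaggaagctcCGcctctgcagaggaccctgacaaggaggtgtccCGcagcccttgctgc
Grb10: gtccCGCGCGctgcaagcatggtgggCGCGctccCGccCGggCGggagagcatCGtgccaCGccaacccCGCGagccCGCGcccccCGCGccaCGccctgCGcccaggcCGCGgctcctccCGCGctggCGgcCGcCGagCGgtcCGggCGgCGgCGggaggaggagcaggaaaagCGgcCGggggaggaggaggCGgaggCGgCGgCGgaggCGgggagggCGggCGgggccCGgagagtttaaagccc

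RefSeq promoters were matched for 8 members, 15 in all, and H19 and Cdkn1c had no entry. The first Grb10 promoter held 40 CpG dinucleotides, a number reached by 1.31% of the 32851 promoters in the table, against 8 in the second Grb10 promoter. Plagl1 held 19 and Peg3 and Dlk1 8 each, where the median over all promoters was 6. The first Meg3 promoter held 10 CpG dinucleotides. It was the only one of the 15 with the letters TATAAA on either strand, which 12.4% of all promoters hold. The letters GGGCGG, searched on both strands, were in 7 of the 15 and in 32.7% of all promoters. Among those printed, GGGCGG was in that of Plagl1, higher in mTEC hi, and in the first of Grb10, lower in mTEC hi, and in none of the others. H19 also holds the hairpin of Mir675, whose exon overlaps it by 84 bases. The 2 mature products, with the seed (bases 2 to 8) in capitals, are shown because H19 is their host transcript. They have different seeds, and mature miRNAs carry no poly(A) tail and were not measured in these libraries.
mmu-miR-675-5p: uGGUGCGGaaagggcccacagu
mmu-miR-675-3p: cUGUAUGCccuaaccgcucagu

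Total gene reads ranged from 38791960 to 86793594 per library. Psmb11, the gene the mice lack, lay between 0.85 and 1.63 CPM (gene reads scaled to a common library size with TMM factors) in the 6 libraries titled knockout and between 7.10 and 12.2 CPM in the 6 titled WT. In the 4 libraries whose labels conflict, its level thus followed the title and not the source name. Psmb11 was not used to place any library. The 6 mature mTEC markers, all higher in mTEC hi, summed to 8340 to 8735 CPM in mTEC hi and 2325 to 2656 CPM in mTEC lo. Most of that sum was H2-Aa, a gene of the MHC class II that the sort used. H2-Aa stood at 5300 to 5729 CPM in mTEC hi and 1925 to 2293 CPM in mTEC lo. The 6 immature mTEC markers, all lower in mTEC hi, summed to 1493 to 1797 CPM and 9931 to 12160 CPM. Genes of other cells were present too. The 7 dendritic cell and macrophage genes, all higher in mTEC hi, summed to 539.9 to 590.4 CPM there and 69.0 to 95.2 CPM in mTEC lo, the 6 B cell genes, also all higher, to 69.1 to 73.6 CPM and 11.5 to 17.7 CPM, the 6 erythroid genes, all higher, to 18.6 to 22.3 CPM and 1.29 to 4.96 CPM, and the 8 thymocyte genes, 6 of them higher, to 149.3 to 263.8 CPM and 31.6 to 86.3 CPM. The 10 fibroblast genes summed to 263.8 to 287.3 CPM in mTEC hi and 487.2 to 630.1 CPM in mTEC lo, with 3 higher and 7 lower in mTEC hi. The 6 pericyte and smooth muscle genes summed to 1055 to 1123 CPM in mTEC hi and 1623 to 2077 CPM in mTEC lo, with 2 higher, 3 lower and 1 not called. The 6 endothelial genes summed to 42.2 to 62.2 CPM and 44.2 to 69.1 CPM, with 3 lower and 3 not called. The part of these cells in the members' levels was not tested. In bulk libraries, more cells of a type and more RNA per cell cannot be told apart.

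Levels between genes were compared in TPM, the authors' values per length and library. In mTEC hi the order was Plagl1 (192.6 ± 23.1 TPM, SD, n = 6 libraries), Cdkn1c (191.6 ± 17.0), Dlk1 (50.1 ± 4.14), Igf2 (29.7 ± 5.33), H19 (26.8 ± 4.05), Grb10 (14.0 ± 2.30), Meg3 (8.64 ± 1.87), Peg3 (6.84 ± 0.893), Mest (6.73 ± 0.847) and Ndn (2.94 ± 0.232). The ranges of neighbours in that order overlapped for Plagl1 and Cdkn1c, for Igf2 and H19, and for Meg3, Peg3 and Mest. In mTEC lo Plagl1 (38.6 ± 9.58 TPM) and Cdkn1c (37.5 ± 3.32 TPM) again stood at the top with overlapping ranges. They were followed by Grb10 (20.7 ± 4.78 TPM) and Peg3 (14.9 ± 2.80 TPM), whose ranges also overlapped, and then by Mest (7.38 ± 0.987 TPM). Meg3 (4.61 ± 2.45 TPM), Ndn (2.74 ± 0.132), Igf2 (2.58 ± 1.22), H19 (2.53 ± 1.504) and Dlk1 (1.61 ± 0.265) closed the order, each overlapping the next, and Mest overlapped Meg3. Dlk1 was thus number 3 of the 10 in mTEC hi and last in mTEC lo. The 10 genes together made up 529.9 ± 37.45 TPM in mTEC hi and 133.2 ± 19.98 TPM in mTEC lo.

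**Figure D1:**
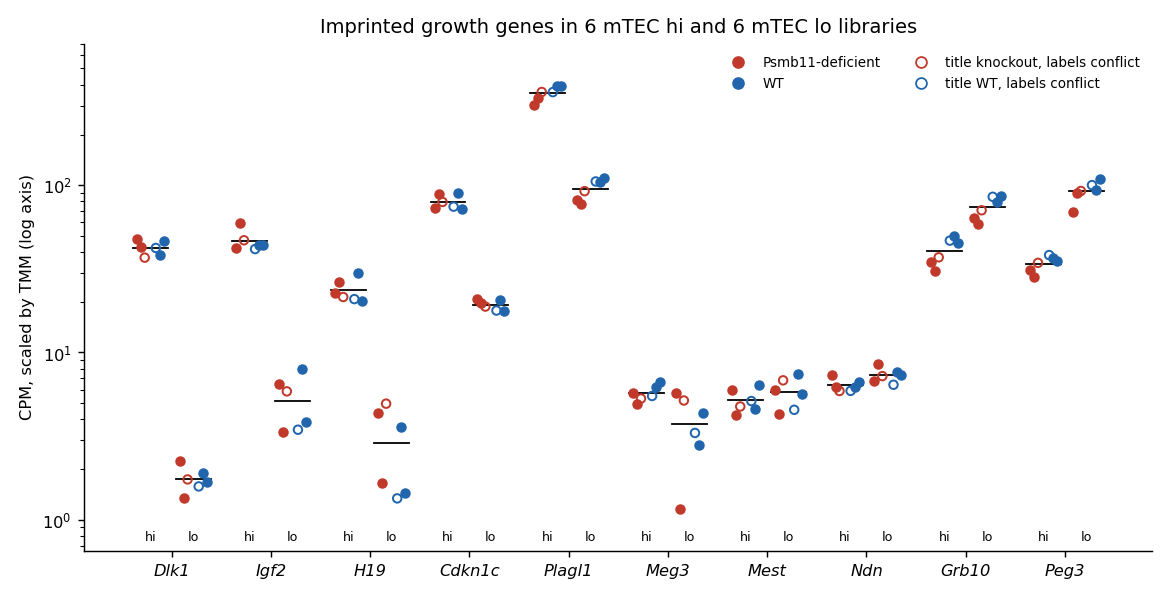
Level of each of the 10 genes (CPM scaled by TMM, log axis) in the 6 mTEC hi and 6 mTEC lo libraries; each point is 1 library, black bars are means, red marks a knockout title, blue a WT title, and open points are libraries whose labels conflict on genotype. Dlk1, Igf2, H19, Cdkn1c and Plagl1 are higher in every mTEC hi library than in any mTEC lo library, Grb10 and Peg3 lower, and Meg3, Mest and Ndn overlap.

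The first comparison asked how the 10 genes differ between the mature, MHC class II high cells and the MHC class II low cells. By edgeR's quasi-likelihood test with Benjamini-Hochberg adjustment, 8 of the 10 members changed: Dlk1, Igf2, H19, Cdkn1c, Plagl1 and Meg3 were higher in mTEC hi and Peg3 and Grb10 lower. Of all 23923 genes tested, 82.1% were called, 44.2% higher and 38.0% lower, so the number of members called is near the background and only their size and direction describe them. Their median log2 fold change was 1.26, against 0.08 over all genes tested. Scaling by library size alone in place of TMM moved the median over all genes to 0.37. It moved the calls from 10569 higher and 9080 lower to 12907 higher and 6347 lower. Grb10 moved from -0.87 to -0.58 and Ndn from -0.20 to 0.09. The direction of a change smaller than this shift, such as that of Ltv1 below (-0.13), is thus not settled by these data. A fall little larger than the shift, such as that of Cdkn1b (-0.33), would lie near 0 after it. In 5 members every mTEC hi library was above every mTEC lo library, as in 38.5% of all genes tested, and in 2 every one was below, as in 30.3%.

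Among the ligands and their domain partners, Dlk1 changed most. Its level was 36.9, 42.5 and 47.6 CPM (lowest, median and highest library) in mTEC hi and 1.347, 1.70 and 2.25 CPM in mTEC lo. The lowest mTEC hi library thus lay far above the highest mTEC lo library. The log2 fold change was 4.59 ± 0.10 (SE, adjusted p = 1.255e-16), a 24.1-fold difference that 10.4% of tested genes exceed in size. Igf2 lay at 41.5, 44.0 and 59.6 CPM in mTEC hi and at 3.33, 4.84 and 7.95 CPM in mTEC lo, a log2 fold change of 3.17 ± 0.18 (adjusted p = 3.14e-11). H19 lay at 20.4, 22.1 and 30.03 CPM and at 1.34, 2.62 and 4.94 CPM, a log2 fold change of 3.02 ± 0.27 (adjusted p = 1.43e-08). The neighbouring genes Igf2 and H19, which oppose each other on a given parental copy, rose by similar amounts, 8.98-fold and 8.14-fold. Meg3 lay at 4.95, 5.62 and 6.65 CPM in mTEC hi and at 1.16, 3.81 and 5.70 CPM in mTEC lo. The Meg3 groups overlapped, and its log2 fold change of 0.61 ± 0.25 (adjusted p = 0.0358) lost its call when any 1 of 5 libraries was left out (adjusted p from 0.0616 to 0.0892), with DESeq2 (adjusted p = 0.0567) and in the 8 libraries with agreeing labels (adjusted p = 0.0568). Meg3 exons share 1228 bases with the antisense gene Gm26906, and the counts do not use strand, so reads there cannot be told apart.

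Of the growth restrainers, Cdkn1c and Plagl1 were higher in mTEC hi and Grb10 lower. Cdkn1c, on chromosome 7 (143458339 to 143461050 in GRCm38, GENCODE M21), lay at 72.3, 77.0 and 90.4 CPM in mTEC hi and at 17.7, 19.3 and 21.02 CPM in mTEC lo, and no library crossed. Its log2 fold change was 2.05 ± 0.07 (adjusted p = 1.48e-14). Plagl1, on chromosome 10 (13060504 to 13131694), lay at 301.1, 361.0 and 392.5 CPM and at 77.8, 98.7 and 110.5 CPM, a log2 fold change of 1.90 ± 0.05 (adjusted p = 7.7e-16). Grb10, on chromosome 11 (11930508 to 12038683), went the other way, with 30.8, 41.3 and 49.4 CPM in mTEC hi and 59.0, 75.0 and 85.9 CPM in mTEC lo. The log2 fold change of Grb10 was -0.87 ± 0.06 (adjusted p = 1.14e-09), so it was 1.83-fold higher in mTEC lo. Of the Cdkn1c exons, 30.7% overlap the antisense gene Gm44732. With either strand column alone Cdkn1c stood at 158.5 and 158.9 CPM in mTEC hi and at 31.8 and 32.0 CPM in mTEC lo, so its level depends on how reads in the overlap are counted, and it was higher in mTEC hi either way.

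Peg3 fell most. This zinc finger gene, on chromosome 7 (6703892 to 6730431), lay at 28.3, 34.8 and 38.3 CPM in mTEC hi and at 69.0, 93.0 and 108.9 CPM in mTEC lo. Every mTEC hi library was below every mTEC lo library, and the log2 fold change was -1.44 ± 0.07 (adjusted p = 1.255e-12). Mest and Ndn did not pass the test. Mest lay at 4.23, 4.94 and 6.39 CPM in mTEC hi and at 4.30, 5.77 and 7.396 CPM in mTEC lo (log2 fold change -0.15 ± 0.14, adjusted p = 0.331), and Ndn at 5.88, 6.20 and 7.35 CPM and at 6.41, 7.26 and 8.497 CPM (-0.20 ± 0.09, adjusted p = 0.0597). Ndn was called lower without mTEC hi Psmb11-deficient replicate 1 (-0.23, adjusted p = 0.0418 by edgeR), mTEC lo Psmb11-deficient replicate 1 (-0.24, 0.0235) or the mTEC lo library titled WT 1 (-0.23, 0.0469). Both sets of libraries overlapped, and the sign of both genes turned under scaling by library size alone (0.14 and 0.09). With RSEM counts Mest was called lower (-0.34, adjusted p = 0.00656). Mest exons share 912 bases, 23.1% of their length, with the antisense gene Copg2, and with either strand column alone the Mest level was 10.04 and 10.92 CPM in mTEC hi. These levels are of mTEC hi alone and do not bear on the direction of Mest between the cell types.

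The genes that lie beside the members did not follow them as blocks. In the Igf2-H19 domain 5 of 7 tested neighbours were higher in mTEC hi, with Ins2, the insulin gene, at a log2 fold change of 6.14 ± 0.22 and Th, tyrosine hydroxylase, at 5.49 ± 0.20. Igf2os, the antisense transcript of Igf2, was at 4.34 ± 0.27 and Lsp1, a leukocyte actin-binding protein, at 3.93 ± 0.07, while Mrpl23, a mitochondrial ribosomal protein gene, fell by 0.53. Igf2os shares 98 bases of exon with Igf2. Ins2 was measured at 7.44 to 9.57 CPM in mTEC hi and at 0.04 to 0.22 CPM in mTEC lo.

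In the Dlk1-Meg3 domain 4 of 6 neighbours were higher in mTEC hi. Rtl1, a retrotransposon-derived gene needed in the placenta, changed by 5.82 ± 0.47, from 0.0352 to 2.10 CPM on average. Rtl1 lies between Meg3 and Rian on the other strand, and the counts do not use strand. Reads from either strand there thus cannot be told apart. Dio3, a deiodinase that inactivates thyroid hormone, changed by 5.70 ± 0.47, from 0.0673 to 3.71 CPM. The noncoding RNAs Rian and Mirg, which lie downstream of Meg3 on the maternal copy, changed by 2.07 ± 0.22 and 3.33 ± 0.30. Meg3, at 0.61 ± 0.25, was thus the member of its domain with the smallest rise among the genes called higher. Rian stood at 11.8 to 14.3 CPM in mTEC hi and at 1.74 to 5.35 CPM in mTEC lo, where Meg3 reached 5.70 CPM. Begain fell by 0.37 and Wdr25 (0.08, adjusted p = 0.387) did not pass the test.

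Peg3 fell while all 3 of its tested neighbours rose. Usp29, a deubiquitinase gene that starts beside Peg3, was at 2.37 ± 0.27, Zim1 at 2.63 ± 0.23 and Zfp264 at 4.66 ± 0.61. Their mean levels in mTEC hi were 1.29, 2.62 and 1.01 CPM. In the Ndn domain Magel2, another MAGE family gene, rose by 6.29 ± 0.28 from 0.12 ± 0.086 CPM to 9.69 ± 1.105 CPM (SD, n = 6 each), and Snrpn, a splicing factor gene, rose by 1.54 ± 0.09. Mkrn3 fell by 0.60, Peg12 fell by 1.58 and the lipid flippase gene Atp10a fell by 2.24. Beside Grb10, Cobl fell by 1.26, while Ddc (0.36), Ikzf1 (2.26) and Fignl1 (2.25) rose. Beside Plagl1, which rose, Phactr2 fell by 1.77 and Ltv1 by 0.13. Around Mest, Copg2 fell by 0.82, Klf14 rose by 1.12 and Cep41 (-0.10) did not pass. In the Cdkn1c domain 3 of 8 neighbours rose and 3 fell. Among the rises, those of Kcnq1 (0.21) and Nap1l4 (0.11) were smaller than the shift between scalings given above. Phlda2, a placental growth restrainer, rose by 1.34 ± 0.18 and Cd81 fell by 1.41. Kcnq1ot1, the noncoding RNA that silences the domain in cis, did not pass the edgeR test (-0.10 ± 0.10, adjusted p = 0.352). Kcnq1ot1 lies within Kcnq1 on the other strand, and the counts do not use strand, so unspliced Kcnq1 reads there cannot be told apart.

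**Figure D2:**
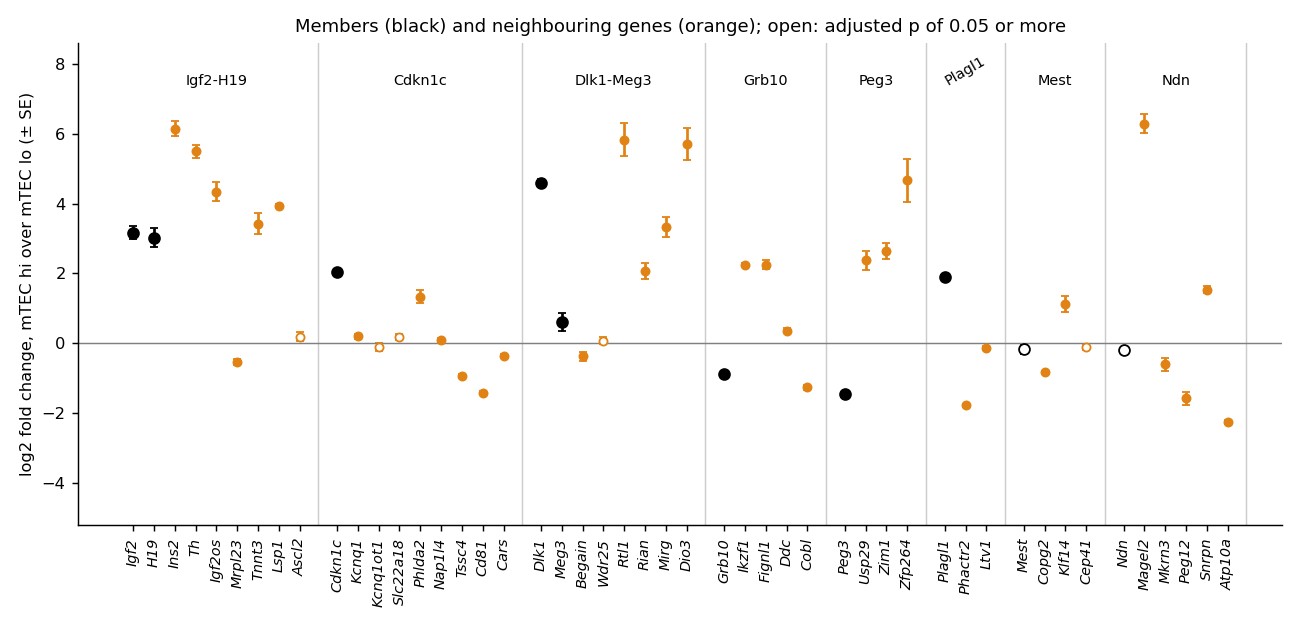
Log2 fold change of mTEC hi over mTEC lo with its standard error for the members (black) and the tested genes beside them (orange), grouped by imprinted domain; filled points passed the threshold of 0.05 and open points did not. Peg3, at -1.44, lies below its 3 neighbours, and Magel2, at 6.29, stands apart from Ndn. Dlk1, at 4.59, is accompanied by Rtl1 and Dio3, with Meg3 lower at 0.61.

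Over 45 further imprinted genes, chosen with earlier results known, 25 were higher in mTEC hi, 15 lower and 5 did not pass, with a median log2 fold change of 0.92 against 0.08 for all genes tested. The largest rises were those of Magel2 and Ins2, and Asb4 (6.06), Kcnk9 (6.11) and Slc22a3 (5.58), an organic cation transporter that reached 37.1 ± 1.49 CPM, were also above 5. Sgce, sarcoglycan epsilon, fell by 3.52, from 13.4 ± 1.49 CPM to 1.15 ± 0.22 CPM, while Peg10, its neighbour on the same shared control region, rose by 1.40. Igf2r, the clearance receptor of Igf2, fell by 0.49, and Airn, the noncoding RNA that overlaps it, fell by 0.95. Airn lies on the other strand, and the counts do not use strand, so reads where both genes overlap cannot be told apart.

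The proteins that make, bind and read IGF signals also divided. Of the 26 tested genes of the IGF and insulin receptor pathway, 14 were higher in mTEC hi, 11 lower and 1 did not pass (median 0.37). The ligands rose: Igf1 was at 161.7 to 225.9 CPM in mTEC hi and at 20.3 to 35.6 CPM in mTEC lo (2.92 ± 0.12), alongside Igf2 and Ins2. The receptors split, with Insr up (0.98 ± 0.04) and Igf1r down (-0.89 ± 0.05). The adaptors Irs1 (-3.07 ± 0.07) and Irs2 (-1.66 ± 0.07) fell, as did Grb10, whereas its relatives Grb14 (2.92 ± 0.11) and Grb7 (0.44 ± 0.06) rose. Nedd4, a ubiquitin ligase that binds Grb10, fell by 1.57.

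The binding proteins, which hold IGFs outside the cell, moved in both directions. Igfbp1 rose most in the list (6.32 ± 0.31), from 0.07 ± 0.074 CPM to 5.75 ± 0.593 CPM. In mTEC hi Igfbp5 stood at 316.0 ± 18.03 CPM and Igfbp4 at 42.1 ± 4.35 CPM, against 4012 ± 366 and 699.8 ± 76.4 CPM in mTEC lo. They fell by 3.67 and 4.05 on the log2 scale, and Igfbp2 (-2.02), Igfbp3 (-1.16) and Igfbp7 (-1.28) fell too. Igfbp6 rose by 4.25 ± 0.46, from 3.22 ± 5.07 CPM to 47.8 ± 4.52 CPM, with the highest mTEC lo library at 13.56 CPM. The proteases Pappa (3.74 ± 0.10) and Pappa2 (3.34 ± 0.11), which cut IGF binding proteins, and their inhibitor Stc2 (2.46 ± 0.12) rose. The RNA-binding proteins Igf2bp1 (5.89) and Igf2bp3 (2.05), named for binding Igf2 mRNA, rose, and Igf2bp2 (-0.02, adjusted p = 0.875) did not pass.

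**Figure D3:**
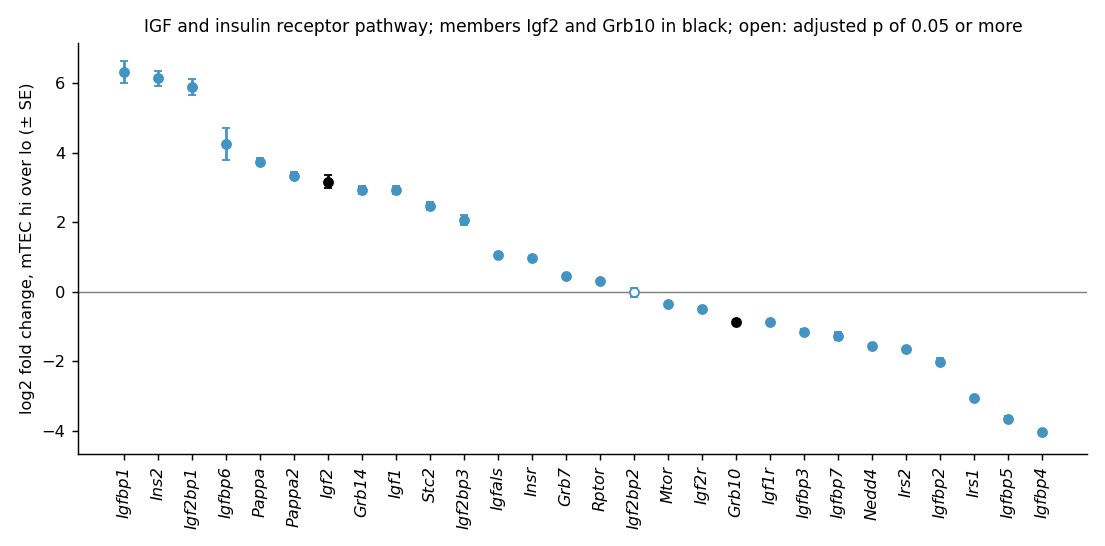
Log2 fold change of mTEC hi over mTEC lo with its standard error for the 26 tested genes of the IGF and insulin receptor pathway (blue) and the members Igf2 and Grb10 (black), in order of size; the open point did not pass the threshold of 0.05. The ligands Igf1, Igf2 and Ins2 lie on the upper side, and Irs1, Igfbp4 and Igfbp5, at -3.07 or lower, close the lower end.

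Of 6 other inhibitors of cyclin-dependent kinases, Cdkn2b (1.19), Cdkn2c (1.16) and Cdkn2a (0.54) rose, Cdkn1b (p27, -0.33) and Cdkn2d (-0.92) fell and Cdkn1a (p21, 0.03, adjusted p = 0.652) did not pass, so none changed as much as Cdkn1c at 2.05. Among the relatives of the members, Plag1, the relative of Plagl1, fell by 1.12 and Plagl2 did not pass (-0.03), Dlk2 fell by 0.37 where Dlk1 rose, and the MAGE genes Maged1 (-1.61) and Maged2 (-1.31) fell where Magel2 rose. Of 8 factors that set or protect imprints, Dppa3, an oocyte and germ cell protein, rose by 6.61 ± 0.17 to 60.2 ± 5.41 CPM, and Ctcfl, the germ cell paralogue of the insulator protein Ctcf, rose by 6.25 ± 0.23. Uhrf1, which guides maintenance methylation, rose by 2.85. Zfp57 (-1.39), Ctcf (-0.59), Trim28 (-0.42) and the maintenance methylase Dnmt1 (-0.32) fell, and Zfp445 did not pass (-0.0003, adjusted p = 0.996).

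The second comparison asked whether loss of Psmb11 goes with other levels of the members. In mTEC lo none of the 10 members passed the adjusted threshold by edgeR, where 0.0150% of 26642 genes did (4 genes). Plagl1, Grb10 and Peg3 (3 members) had an unadjusted p under 0.05 by edgeR, as did 11.3% of all genes tested. Grb10 was chosen by its mTEC hi values and the 3 genes varied together within cell types, so nothing is read from that count. Plagl1 was at 82.0 and 77.8 CPM without Psmb11 and at 105.3 and 110.5 CPM in WT. Both Psmb11-deficient libraries were below both WT libraries, with a log2 difference of -0.44 ± 0.09 (SE, n = 2 each, adjusted p = 0.136 by edgeR). Grb10 was at 63.8 and 59.0 CPM against 79.2 and 85.9 CPM, again without overlap (-0.43 ± 0.10, adjusted p = 0.178 by edgeR). Peg3 was at 69.0 and 90 CPM against 93.5 and 108.9 CPM (-0.36 ± 0.12, adjusted p = 0.318 by edgeR). The thymocyte genes differed between these libraries too. They summed to 86.3 and 59.5 CPM without Psmb11 and to 38.2 and 31.6 CPM in WT, with 0 of 8 below WT and 0 of 8 called. By title the genotypes overlapped, with 63.55 CPM in the library titled WT 1 and 43.3 CPM in that titled knockout 3. Libraries of title number 1 had the highest sums in both cell types. In mTEC hi they had 263.8 and 201.8 CPM, against 149.3 to 161.3 CPM in the others. The Psmb11-deficient libraries also stood apart from each other and from the rest, with a chi-square per gene of 27.1 to 50.4 in every pair that held at least 1 of them, against 11.4 to 25.2 among the other 4 mTEC lo libraries. The part of the thymocyte genes or of this spread in the differences of Plagl1, Grb10 and Peg3 was not tested. DESeq2, which called 0.548% of genes in this contrast, called Plagl1 (-0.42, adjusted p = 0.00347) and Grb10 (-0.42, adjusted p = 0.0380) and did not call Peg3 (adjusted p = 0.242). Without Psmb11-deficient replicate 1 edgeR called Plagl1 (-0.47, adjusted p = 0.0418) and Meg3 (-1.62, adjusted p = 0.0158), and without replicate 2 it called Peg3 (-0.56, adjusted p = 0.0288).

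The other 7 members showed smaller or less even differences in mTEC lo. Mest was at -0.35 ± 0.25, Igf2 at -0.26 ± 0.31, H19 at 0.27 ± 0.41, Cdkn1c at 0.09 ± 0.13, Meg3 at -0.06 ± 0.48, Ndn at 0.02 ± 0.18 and Dlk1 at 0.02 ± 0.22 (log2 difference with SE, adjusted p of 0.62 or more by edgeR). The standard errors of Meg3, H19 and Igf2 are the widest of the 10. Meg3 was at 5.70 and 1.16 CPM without Psmb11, against 2.79 and 4.32 CPM in WT. H19 was at 4.36 and 1.66 CPM against 3.57 and 1.45 CPM, and Igf2 at 6.49 and 3.33 CPM against 7.95 and 3.83 CPM, so libraries of both genotypes were far apart for these 2 genes.

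In mTEC hi, where the contrast was used in choosing the members and 0.00375% of genes (1 gene) were called, the values are given as a description. Grb10 was at 34.6 and 30.8 CPM without Psmb11 and at 49.4 and 45.5 CPM in WT (log2 difference -0.53 ± 0.10). Plagl1 was at 301.1 and 331.0 CPM against 392.5 and 391.1 CPM (-0.30 ± 0.09), and Peg3 at 31.3 and 28.3 CPM against 36.7 and 35.3 CPM (-0.27 ± 0.13). In all 3 genes both Psmb11-deficient libraries were below both WT libraries. With the genotype taken from the source name the log2 differences in mTEC hi were -0.24 ± 0.15 for Grb10, -0.21 ± 0.10 for Plagl1 and -0.12 ± 0.12 for Peg3, and with the genotype from the title -0.46 ± 0.08, -0.20 ± 0.08 and -0.23 ± 0.10. Meg3 (-0.25), Igf2 (0.21), Dlk1 (0.11), Ndn (0.08), Mest (-0.08), H19 (-0.04) and Cdkn1c (-0.01) were nearer to 0.

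Taking the genotype from the title gives 3 libraries per genotype and cell type. On this reading Grb10 was at 59.0 to 70.9 CPM under knockout titles and 79.2 to 85.9 CPM under WT titles in mTEC lo, and at 30.8 to 37.1 CPM and 45.5 to 49.4 CPM in mTEC hi. Peg3 also did not overlap in either cell type, at 69.0 to 92.4 CPM against 93.5 to 108.9 CPM in mTEC lo and at 28.3 to 34.4 CPM against 35.3 to 38.3 CPM in mTEC hi. Plagl1 did not overlap in mTEC lo (77.8 to 92.2 CPM against 105.3 to 110.5 CPM) and overlapped by a narrow margin in mTEC hi (301.1 to 361.4 CPM against 360.7 to 392.5 CPM). Libraries under knockout titles were thus below all those under WT titles for 3 of 10 members in mTEC lo, where 7.71% of genes tested do so. In mTEC hi it held for 2 members and for 5.29% of genes tested. Grb10, in both counts, was chosen by its mTEC hi values, and the labels do not say which libraries share animals. Grb10, Plagl1 and Peg3 also varied together within cell types. Nothing is thus read from either count. None of the members was above without overlap in mTEC lo, where 9.97% of genes were. Grb10 and Peg3 were below without overlap in both cell types, as were 0.711% of all genes, and for the same reasons this too is a description and supports nothing. By the title the log2 differences in mTEC lo were -0.37 ± 0.08 for Grb10 (adjusted p = 0.109), -0.35 ± 0.08 for Plagl1 (adjusted p = 0.111) and -0.27 ± 0.10 for Peg3 (adjusted p = 0.242), all short of the edgeR threshold. By the source name they were -0.18, -0.22 and -0.19 (adjusted p of 0.794 or more by edgeR). Psmb11 itself was at -1.10 ± 0.85 in mTEC lo by the source name and at -2.72 ± 0.23 by the title.

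**Figure D4:**
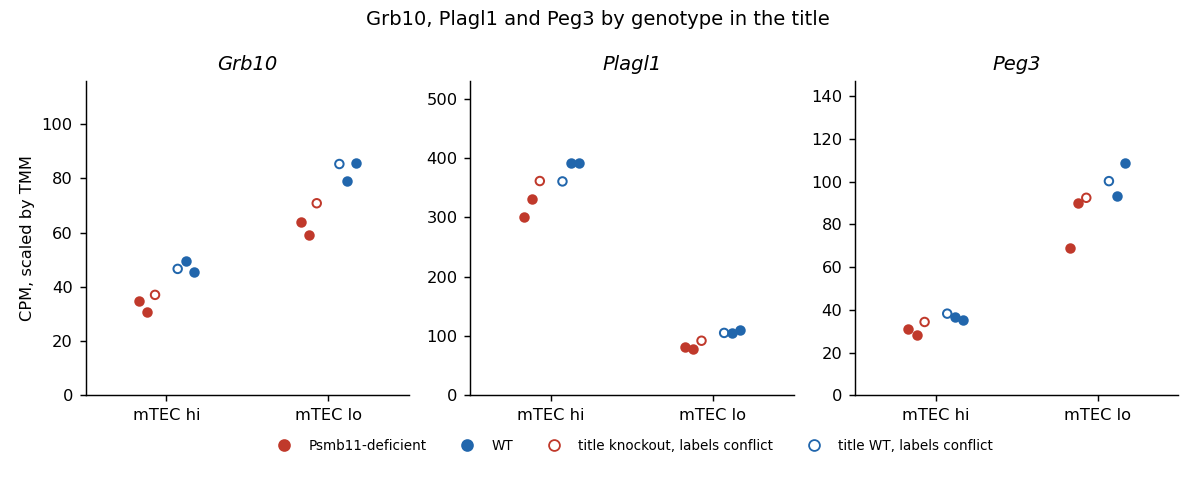
CPM (scaled by TMM, linear axis from 0) of Grb10, Plagl1 and Peg3 in each mTEC hi and mTEC lo library; red marks a knockout title, blue a WT title, and open points are libraries whose source name gives the opposite genotype. The red points lie below the blue ones in every panel except mTEC hi of Plagl1, where 361.4 CPM under a knockout title and 360.7 CPM under a WT title cross.

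The spread among the 6 mTEC lo libraries was not even across the members. The coefficient of variation was 55.5% for H19, 44.7% for Meg3 and 36.9% for Igf2 in mTEC lo, against 16.0%, 10.8% and 14.7% in mTEC hi, and 7.26% for Cdkn1c and 14.2% for Plagl1 in mTEC lo. H19 stood at 4.36 CPM (Psmb11-deficient 1), 1.66 (Psmb11-deficient 2), 3.57 (WT 2), 1.45 (WT 3), 1.34 (title WT 1) and 4.94 CPM (title knockout 3), from 71 to 287 reads. Psmb11-deficient 1, WT 2 and title knockout 3 were thus high and the other 3 low. Igf2 was at 6.49, 3.33, 7.95, 3.83, 3.45 and 5.85 CPM in the same order, with the same 3 libraries on top. Rian was at 4.35, 1.74, 3.48, 2.14, 1.81 and 5.35 CPM, again with the same 3 on top. Dlk1, Mest and Tnnt3, a muscle troponin gene beside H19, had these 3 highest as well, a set that 3.97% of tested genes share and that was picked out after the values were seen. The 3 libraries hold both genotypes by any label. Meg3 was at 5.70, 1.16, 2.79, 4.32, 3.30 and 5.16 CPM, where WT 3 took the place of WT 2. The 10 fibroblast genes were highest in Psmb11-deficient 2 (630.1 CPM against 487.2 to 588.1 CPM in the other 5 libraries), which was low for H19, Igf2 and Meg3, and their part in the spread was not tested.

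**Figure D5:**
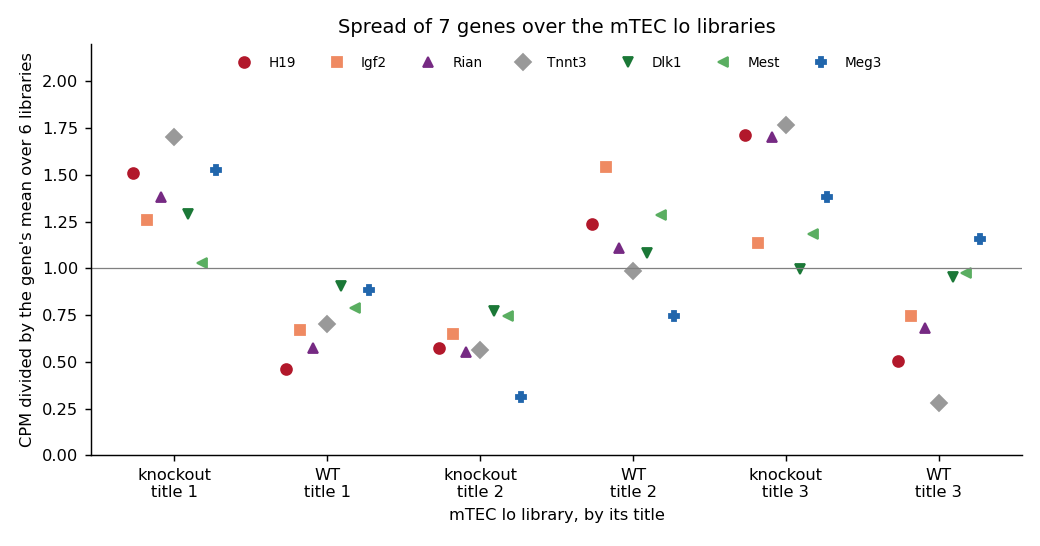
CPM of 7 genes in each of the 6 mTEC lo libraries, divided by the mean of the gene over the 6; each point is 1 gene in 1 library, and libraries are named by their titles. H19, Igf2, Rian and Tnnt3 lie above or near their mean in knockout title 1, WT title 2 and knockout title 3 and below it in the other 3, while Dlk1 and Mest vary less.

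The members were last compared by how they vary within cell types, by Pearson's r of log2 CPM over 12 libraries after the mean of each cell type was taken out. These values share libraries and depth and are given as a description. The genotype was not taken out, so a difference between genotypes adds to these values: Psmb11 itself had r = 0.90 with Grb10, 0.83 with Plagl1 and 0.64 with Peg3, and between -0.26 and 0.18 with the other 7 members. Grb10 and Plagl1 varied together (r = 0.87), as did H19 and Igf2 (0.82), Grb10 and Peg3 (0.79) and Peg3 and Plagl1 (0.72), and H19 with Rian reached 0.88. Grb10 and Igf2 did not (r = -0.23). Of 15650 other genes, those most like Grb10 were Ing5, Srek1 and Ccnt2 (each 0.94), and those most like Plagl1 were Gdap10 (0.97), Tet2 (0.96) and Per2 (0.95). Exoc1 (0.94), N4bp2 and Tcf4 (both 0.93) were most like Peg3. The 3 most like H19 were Myh1, a muscle myosin (0.94), Rian (0.88) and Nxpe3 (0.88), and those most like Igf2 were Selp (0.905), Pyy and Aqp8 (both 0.85). For Dlk1 they were Cdc42ep2 (0.89), Mpo and Txnl4b (both 0.88), for Meg3 Slc9a5 (0.93), Vwce (0.91) and Lacc1 (0.90), and for Cdkn1c Mtrf1l (0.93), Rab5b (0.89) and Lrrc41 (0.88). Mest was nearest to Rhpn1 (0.87), Fut1 (0.83) and Nrxn2 (0.82), and Ndn to Mrrf, Sdhaf1 and Mettl15 (all 0.86).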

How the data were processed

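RNA sequencing of 6 mTEC hi and 6 mTEC lo libraries was analysed; the other cell types that the series names were not analysed here. Per the labels, libraries were made from polyadenylated RNA with a TruSeq kit. The authors deposited raw read counts for each gene, whole numbers, once without regard to strand and once per strand. The fraction on 1 strand was 0.504 to 0.508, so the counts without strand were used. The authors also deposited RSEM expected counts, rounded here before tests, and TPM; RSEM totals were 0.507 to 0.535 times the gene reads. Reads outside genes (7.42% to 15.8%) and reads over several genes (3.57% to 4.16%) stayed out of library sizes. Named in the submitters' processing notes are STAR 2.5.1b, RSEM 1.2.28, CASAVA 1.8.2 and a build, GRCh38, although the identifiers are of mouse genes. Which annotation was used is not stated there. Of 50600 identifiers 50376 matched GENCODE M21 (GRCm38), from which symbols, coordinates and overlaps come. RefSeq gave promoters and miRNAs.

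The tools were DESeq2 1.42.0, edgeR 4.0.16 and limma 3.58.1 under R 4.3.3. Genes with few reads were removed by filterByExpr (minimum count 10, minimum total 15), and counts were given TMM factors and tested by edgeR quasi-likelihood, with Benjamini-Hochberg adjustment over all genes and a threshold of 0.05. The contrast of mTEC hi and mTEC lo used all 12 libraries and adjusted for genotype class, and that of the genotypes used a 4-group model of 8 libraries (4 residual degrees of freedom, square root of the common dispersion 0.125). The fits were also run on simulated counts that used their common dispersion. Of 50 genes changed 1.5-fold, 98% were recovered between mTEC hi and mTEC lo and 24% between genotypes in mTEC lo. At 2-fold the shares were 100% and 92%. With this 1 dispersion for all genes, genotype changes of 1.5-fold were thus mostly missed in mTEC lo. These shares do not hold for each member, since the members differ in spread (SE in mTEC lo of 0.09 for Plagl1 and 0.48 for Meg3). No libraries of a cell type agreed within sampling noise (lowest chi-square per gene 7.07).

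The members, gene lists and tests were chosen with earlier results of these data known. Lists of cell markers are given as sums. Named besides the members are, from each other list, the 2 called genes of largest change with a mean of at least 1 CPM. Genes next to a member and the 3 genes most like each member are also named. Further list genes were named after their values were seen. Alternatives were RLE factors, library size alone, DESeq2, no filter, RSEM counts, other covariates, each library left out, genotype from the title or the source name, replicate blocks and single strand columns. Leaving out the libraries of title number 1, or those titled knockout 2, was added after the data were seen.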

Additional observations from a re-analysis of the deposited data

Results flagged for a closer look

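Igf2 stood at 59.64 CPM in mTEC hi Psmb11-deficient replicate 2, and the next library was at 46.9 CPM, a gap of 0.704 of the whole range of the 6 mTEC hi libraries, past Dixon's 95% critical value. Each of the 10 members was tested in each cell type, 20 groups in all, and chance flags about 1 in 20.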

How the results depend on the processing

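The mTEC hi against mTEC lo calls of Grb10, Igf2, H19, Dlk1, Peg3, Plagl1 and Cdkn1c held under all 24 alternatives (highest adjusted p 1.33e-06), those without the libraries of title number 1 or titled knockout 2 included, and 7 to 9 members were called. Under scaling by library size alone Mest (0.136) and Ndn (0.0924) turned sign, uncalled; Ndn was called lower without any 1 of 3 libraries of title number 1 (adjusted p from 0.0235 to 0.0469) and, in an alternative chosen after seeing the data, without all 4 (-0.30, adjusted p = 0.0213). For the genotypes in mTEC lo, the 4 genes called became 9 by library size alone, 146 with DESeq2, 660 with no filter, 2 by the source name, 1 with the cell type fitted alone and 18 to 323 with 1 library left out; members called became 2 with DESeq2, 2 with no filter and 0 to 2 with 1 library left out. Without a filter more genes with low counts entered the fit; otherwise the cause was not tested. In mTEC hi the 1 gene called became 3 with DESeq2, 42 with no filter, 3 with RSEM counts, 0 by the source name, 2 with the cell type fitted alone and 0 to 2 with 1 library left out.

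Members with no call turned sign in mTEC lo as follows. By the title, Igf2 was at 0.0401 and Meg3 at 0.20. By the source name, H19 was at -0.41, Dlk1 at -0.019 and Ndn at -0.0299. With RSEM counts Cdkn1c was at -0.0865. With 1 library left out the values ran from -0.82 to 0.34 for Igf2, from -0.60 to 1.03 for H19, from -0.40 to 0.33 for Dlk1, from -1.62 to 0.67 for Meg3 and from -0.16 to 0.19 for Ndn. Fits with 1 Psmb11-deficient or WT library assume that it varies like the other groups.

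A replicate block on the title number left 8 members called between the cell types and 0 between genotypes in mTEC lo, where 45 genes were called, and 12 with the block and the title genotype. With the block H19 was at -0.35 and Dlk1 at -0.12, and with the block and the title genotype Igf2 was at 0.0895 and Meg3 at 0.12. Libraries of the same title number did not pair as a rule. Deviations of knockout and WT titles correlated at 0.19 in mTEC hi and 0.26 in mTEC lo for number 1. For numbers 2 and 3 they correlated between -0.10 and 0.083. Those of mTEC hi and mTEC lo with matching titles correlated between -0.0008 and 0.33, highest for knockout 1. Of 6 mTEC hi libraries 2, knockout 1 and 2, were nearest to their own match. The main genotype contrasts hold number 1 only as Psmb11-deficient and number 3 only as WT, so number and genotype cannot be fully told apart there.

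Levels lay within 0.903 and 1.104 times the main value under library size alone. The highest ratio was 1.92 with RSEM counts and 1.99 and 2.11 with single strand columns, for Cdkn1c or Mest. Fewer than 300 H19 reads per mTEC lo library limit its precision there.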
